A study of Mus musculus with 16 samples.

Results

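The difference between the responses to fasting with and without FoxO was measured in mouse quadriceps muscle. For each gene it is the fasting change in FoxO knockout muscle minus the fasting change in wild-type muscle, called the interaction below. All 16 arrays of the study enter it, and 244 of the 21281 genes tested passed at an adjusted p under 0.05 (1.15%). The mice were males aged 8 weeks, either wild type (WT) or with the genes Foxo1, Foxo3 and Foxo4 deleted from their muscle fibres (mFoxO-TKO, also written mFoxO1,3,4-/- in the labels). The deletion was made by a Cre recombinase under the human α-actin (HSA) promoter, which is known to act in muscle fibres and not in the vessels, nerves, connective tissue and blood cells of the muscle. Mice of each genotype were fed freely or fasted for 24 h in single cages, which gave 4 groups of 4 arrays: WT_Fed, WT_Fasted, mFoxO-TKO_Fed and mFoxO-TKO_Fasted. RNA came from the whole muscle, so fewer cells of a type and less RNA per cell cannot be told apart. The labels number the samples of a group without saying that each came from its own mouse, and the p-values measure the spread between these samples.

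FoxO proteins are forkhead transcription factors. When insulin and growth factors are plentiful, the kinase Akt phosphorylates them and they are held in the cytoplasm. In fasting this signal falls, FoxO proteins enter the nucleus, and in muscle they are known for switching on genes of protein breakdown, among them ubiquitin ligases and autophagy genes, and genes that slow growth and glucose use. The interaction asks which parts of the fasting response need these factors, and which appear when they are missing.

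Upstream sequences are shown for 4 genes whose interaction passed and whose upstream bases hold a short word known from muscle fasting biology. For the 62 passing genes that the naming rule picked, entries in the RefSeq table of mouse promoters (GRCm38.p6) were used, with those on a single chromosome left out. Of these genes 50 had an entry, from which the 250 bases before the transcript start were read. The FoxO core word GTAAACA, searched on both strands like the others, was present for 3 of these 50 genes: Rnf39, Junb and Dlgap1. Chac1 holds TGATGNAA, the composite word of ATF4 and C/EBP factors, and Srxn1 holds the AP-1 word TGACTCA at 2 places. The sequences read 5′ to 3′ on the strand of the gene, and capitals mark these words or their reverse complements, which do not overlap one another here.
Rnf39: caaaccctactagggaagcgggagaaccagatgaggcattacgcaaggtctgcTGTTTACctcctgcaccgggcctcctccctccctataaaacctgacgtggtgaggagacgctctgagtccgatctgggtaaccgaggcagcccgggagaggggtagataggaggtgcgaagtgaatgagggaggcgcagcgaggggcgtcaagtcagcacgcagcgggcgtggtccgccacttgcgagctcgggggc
Junb: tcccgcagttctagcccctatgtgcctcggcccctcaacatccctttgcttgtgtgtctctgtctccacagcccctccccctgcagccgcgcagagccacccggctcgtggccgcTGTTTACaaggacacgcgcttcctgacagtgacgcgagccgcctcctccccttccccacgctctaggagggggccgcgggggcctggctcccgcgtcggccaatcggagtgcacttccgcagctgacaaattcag
Chac1: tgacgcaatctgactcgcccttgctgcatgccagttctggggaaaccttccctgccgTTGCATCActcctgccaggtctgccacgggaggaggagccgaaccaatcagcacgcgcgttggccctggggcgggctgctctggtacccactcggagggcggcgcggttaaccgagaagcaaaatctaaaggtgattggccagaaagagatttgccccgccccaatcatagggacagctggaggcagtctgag
Srxn1: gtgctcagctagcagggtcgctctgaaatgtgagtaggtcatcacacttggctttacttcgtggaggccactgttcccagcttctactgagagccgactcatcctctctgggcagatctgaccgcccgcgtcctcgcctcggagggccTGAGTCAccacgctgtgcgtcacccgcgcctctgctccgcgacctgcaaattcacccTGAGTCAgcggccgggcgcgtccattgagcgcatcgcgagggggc
The windows lie at chr17:36942801-36943050 (plus strand), chr8:84978749-84978998 (minus strand), chr2:119350992-119351241 (plus strand) and chr2:152105274-152105523 (plus strand). The marked words begin 197 bases before the transcript start of Rnf39, 135 before that of Junb, 193 before that of Chac1, and 102 and 45 before that of Srxn1. The shares that follow leave no chromosome out. Over all 147 passing genes with a window, 4.76% held GTAAACA, against 2.76% of the 11241 genes tested that had a window and 3.54% of the 27025 genes of the table. The share was 5.62% (5 of 89) among genes that rose on fasting in WT muscle with a lost or reduced response, and 2.13% (1 of 47) among those that fell. For CAAAACA, the insulin response element, the share was 4.08% of passing genes and 4.97% of genes tested. TGACTCA was present for 5.44% of passing genes and 4.28% of genes tested, and TGATGNAA for 4.76% and 2.56%. A gene with several transcript starts was counted once if any of its windows held the word. A match describes the letters of the window and is not a measured binding site.

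The targeted genes check the labels. Levels here are log2 signals relative to the 75th percentile of each array, which is set to 0, listed in the order of replicates 1 to 4. Foxo1 stood at 2.98, 3.11, 2.66 and 3.04 on the fed WT arrays and 5.98, 5.23, 5.0 and 4.92 on the fasted WT arrays. In mFoxO-TKO muscle it stood at 1.36, 1.1, 1.63 and 0.66 (fed) and 2.12, 1.78, 1.77 and 1.88 (fasted). The groups did not overlap within either genotype or either feeding state, and the Foxo1 interaction of -1.64 ± 0.33 passed (± standard error; limma model over all 16 arrays, Benjamini-Hochberg adjusted p = 0.0237). That call was lost in 6 of the 16 fits that left out 1 array, and the other Foxo1 probe gave -1.33 ± 0.38 (adjusted p = 0.124). The Foxo4 probe was well above background on all 8 WT arrays and on none of the 8 mFoxO-TKO arrays. Foxo3 was read by a dim probe that was not lower in fed mFoxO-TKO muscle (0.74 ± 0.27, adjusted p = 0.299), so it gives no check of the labels. Its interaction was -1.49 ± 0.38 and did not pass (adjusted p = 0.0778), although it did with the slide as a block (adjusted p = 0.0325), the replicate block, quantile normalization, scaling on probes above background throughout or array weights. The labels do not place these probes relative to the deleted exons, and only a probe within those exons tests the deletion. Spots well above background made up 45% to 75.2% per array, no spot was saturated, and 1 array, replicate 1 of mFoxO-TKO_Fasted, had lost signal over windows holding 6.17% of its spots (at most 0.381% on the others). Replicates 1 and 2 of every group lay on slide 1 and replicates 3 and 4 on slide 2, and within a slide each group filled 1 column, so array position and group cannot be told apart. With the slide as a block all 244 genes still passed, and the 227 of them that could be fitted on both slides had the same direction on each. The genes were chosen by their mean over these same slides, so the shared direction is no separate check. On slide 1 alone 1 of the 244 genes passed, and on slide 2 alone 50 passed.

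Most of the difference was a loss. Of the 244 passing genes, 184 changed with fasting in WT muscle and did not pass in mFoxO-TKO muscle (called lost: 116 that rose and 68 that fell in WT). Another 43 passed in both genotypes in the same direction with a smaller change in mFoxO-TKO muscle (reduced: 34 that rose and 9 that fell). Opposite changes, both passing, were seen for 9 genes (reversed), 7 genes passed in mFoxO-TKO muscle alone (gained), and Lcn2 passed in both with the larger rise in mFoxO-TKO muscle (enlarged). The interaction was negative for 154 genes (0.724% of those tested) and positive for 90 (0.423%). Its size ran from 0.69 to 4.52 with a median of 1.51 on the log2 scale, while the median over all genes tested was 0.02. The share of negative calls was 63.1%. With other scalings it was 49.5% (probes above background throughout), 64.5% (quantile normalization) and 66.9% (all spots). It was 51.3% in the authors' deposited value table, where 13351 genes were tested, and 75.1% without replicate 1 of mFoxO-TKO_Fasted. An ordinary gene symbol was at hand for 187 of the 244 genes, and 220 were well above background on all 16 arrays. Over the 237 passing genes that also passed in WT fasting, the median gene kept 10.4% of its WT change, a share that the choice of genes by the interaction sets in part.

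Some calls of genes described below ended under another setting. With normexp background correction 151 of the 244 genes passed, and Tmem132e, Galnt3, Zim1, Snhg1, Srcin1, Izumo4, Dpf1, Cklf, Hoxc11, Zfp583, Slc7a1, Myc, Junb, Ier3, Ccng2 and Sqstm1 did not. With no filter on dim probes, which raised the genes tested to 36717, 76 passed. These included Depp1, Tmem132e, Rassf4, Slc43a1, Arl4d, Gadd45a, Gabarapl1, Ulk1, Fbxo30, Junb, Maff, Odc1, Aqp4, Mpp3, Mamstr, Gdf1, Smad3, Aurka, Car9, Map2k6, Pfkfb3, Shisa2 and Dpf1, and all other genes given below as passing by the naming rule missed the threshold there. Snhg1, Slc7a1 and Izumo4 also missed it with scaling on probes above background throughout, Snhg1, Slc7a1 and Relt with quantile normalization, and Snhg1, Relt, Frat1 and Sqstm1 with uneven spots kept. Rgs2, Fam78a and Mtss1 missed it with the mean of all kept probes, Slc7a1 and Zfp583 in the authors' value table, Zfp583 with a trend and robust variances, and Snhg1 with scaling on all spots.

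**Figure D1:**
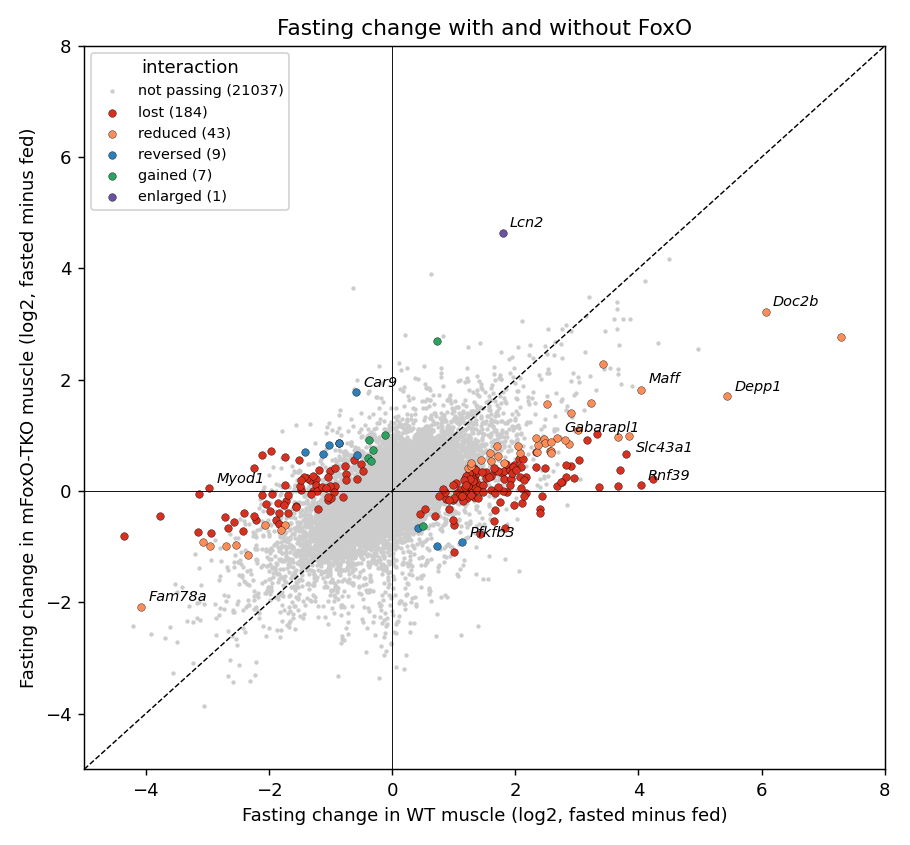
Fasting change (log2, fasted minus fed) of the 21281 genes tested in WT muscle (x axis) and mFoxO-TKO muscle (y axis), with the 244 genes whose interaction passed coloured by class and the dashed line marking equal change. The 184 lost genes lie on both sides of the horizontal axis, with mFoxO-TKO changes from -108% to 32.6% of the WT change. Of them 72 had a mFoxO-TKO change of opposite sign that did not pass. Lcn2 lies far above the line at 1.79 and 4.65.

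The knockout difference between genotypes lay almost wholly in the fasted state. In fasted muscle 238 of the 244 genes differed between the genotypes, against 11 in fed muscle, and the background over all genes was 9.36% and 1.02%. The interaction is the fasted knockout difference minus the fed one, so these counts describe its make-up and are no separate evidence. The median size of the knockout difference was 1.56 in fasted and 0.25 in fed muscle. Fasted WT arrays lay wholly apart from fed WT arrays for 239 genes (28.2% of all genes tested did so) and from fasted mFoxO-TKO arrays for 238 (12.8%), while fed WT and fed mFoxO-TKO arrays lay apart for 62 (9.16%). Fasted and fed mFoxO-TKO arrays lay apart for 84 (13.8%). Among the 4426 genes that passed in WT fasting (20.8%), the median mFoxO-TKO change was 50.2% of the WT change, and 91.7% had the same sign. Among the 1814 that passed in mFoxO-TKO fasting (8.52%), the median WT change was 93.3% of the mFoxO-TKO change. Genes were chosen in each case by their pass in 1 genotype, which favours the change of that genotype.

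**Figure D2:**
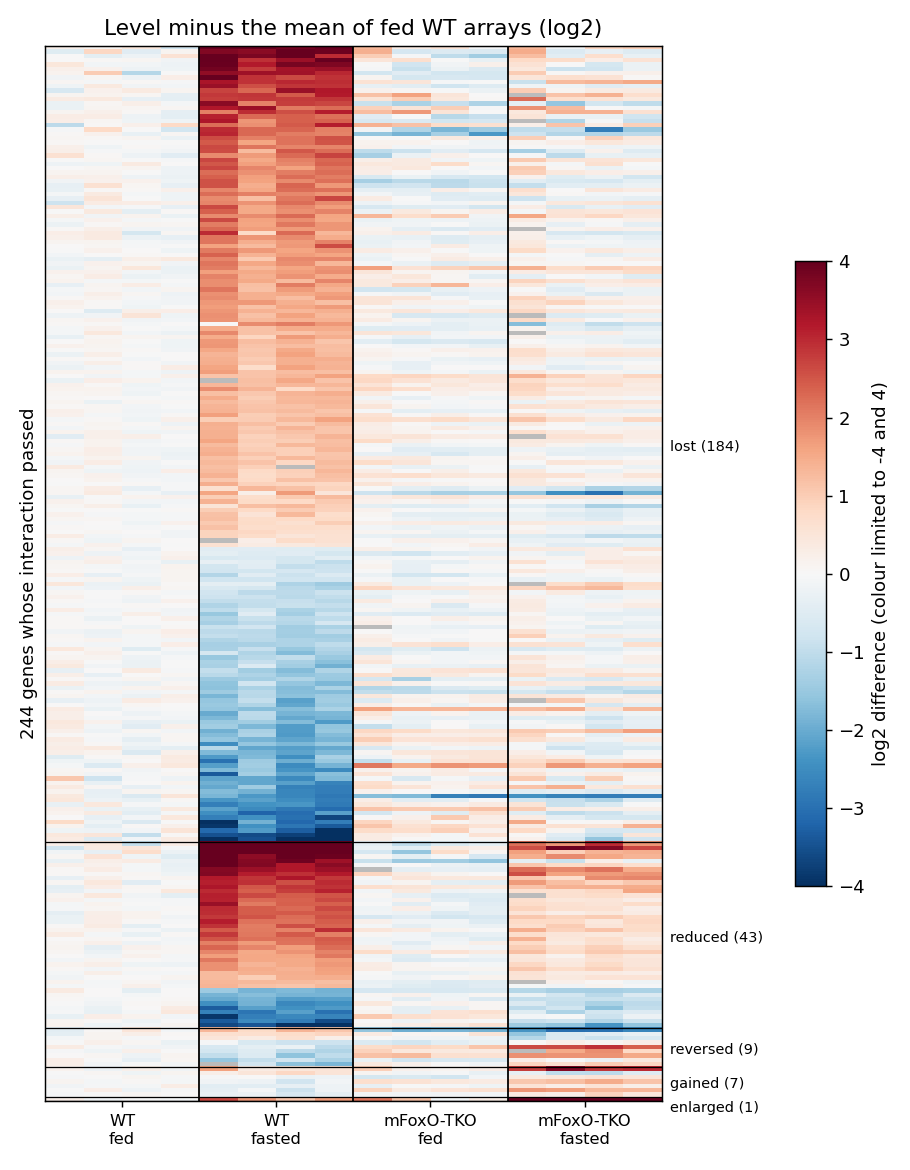
Level of the 244 passing genes (rows, grouped by class and ordered by WT fasting change) on the 16 arrays (columns), as log2 difference from the mean of the fed WT arrays. Grey cells are spots marked uneven and left out. Colour is strongest in the fasted WT columns, and the fed and fasted mFoxO-TKO columns look alike for the lost genes.

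Known FoxO targets were the list with the most passing members. Of 46 targets tested, 9 passed (19.6%, against 1.15% of all genes), all with a negative interaction, and the median interaction of the list was -0.30. In WT muscle 30 of the 46 rose and 3 fell (over all genes 11.2% rose and 9.57% fell), and in mFoxO-TKO muscle 16 rose and 1 fell (4.29% and 4.23%). This list, like the other lists below, was written with earlier results of these data known and lends no independent support. Depp1, a regulator of autophagy that FoxO proteins are known to induce, had the largest loss among them. Its level was 1.7, 1.51, 2.53 and 1.6 in fed and 7.8, 7.14, 7.12 and 7.06 in fasted WT muscle. Its mFoxO-TKO levels were 1.18, 0.28, 2.58 and 1.92 fed and 3.48, 2.78, 3.21 and 3.3 fasted, so fasting raised it in both genotypes without overlap, but every fasted mFoxO-TKO array lay far below every fasted WT array. The rise was 43.6-fold in WT and 3.25-fold in mFoxO-TKO muscle, an interaction of -3.74 ± 0.54 (adjusted p = 0.00307).

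Some growth arrest genes of the target list lost most of their rise, while the interactions of Cdkn1a and Cdkn1b did not pass (adjusted p = 0.666 and 0.669 in limma's test). Gadd45a, a stress-induced protein that slows the cell cycle and is known for its part in muscle atrophy, stood at 0.88, 1.66, 1.85 and 1.63 in fed and 4.21, 3.8, 4.94 and 4.7 in fasted WT muscle. Without FoxO it stood at 1.68, 1.59, 1.49 and 1.26 fed and 2.51, 1.61, 1.84 and 1.87 fasted, and these last 2 groups overlapped. Its interaction was -2.46 ± 0.37 (adjusted p = 0.00437), with a 7.52-fold rise in WT. Sesn1, a sestrin that restrains the growth kinase mTORC1, rose 8.96-fold in WT, changed by 0.91 ± 0.29 in mFoxO-TKO muscle (adjusted p = 0.0699), and had an interaction of -2.25 ± 0.42 (adjusted p = 0.0141). The cyclin gene Ccng2 rose 2.51-fold in WT and had an interaction of -1.07 ± 0.19 (adjusted p = 0.0126). These were the 3 of 24 growth arrest and cell cycle genes that passed (12.5%, against 1.15% of all genes). The list as a whole had a median interaction of -0.82, with 19 of 24 estimates negative.

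Autophagy genes were next in the number of passing members. Of 39 tested, 6 passed (15.4%, against 1.15% of all genes), all negative: Depp1, Gabarapl1, Ulk1, Sqstm1, Retreg1 and Atg13. Depp1 is also counted among the FoxO targets above, and lists that share genes are not separate results. Gabarapl1 belongs to the family of small proteins that are joined to the autophagosome membrane. It stood at 5.88, 6.19, 5.64 and 5.38 in fed and 8.89, 8.41, 8.21 and 8.29 in fasted WT muscle. The mFoxO-TKO arrays read 5.84, 5.46, 5.24 and 5.28 fed and 6.41, 6.52 and 6.31 on the 3 fasted arrays with a usable spot. Fasted exceeded fed without overlap in both genotypes, by 6.39-fold in WT and 1.95-fold in mFoxO-TKO muscle, and the interaction was -1.72 ± 0.29 (adjusted p = 0.0112). Ulk1, the kinase that starts autophagosome formation, stood at 5.39, 5.84, 5.4 and 5.31 in fed and 7.73, 7.5, 7.4 and 7.26 in fasted WT muscle. Its mFoxO-TKO levels were 5.37, 5.16, 4.97 and 5.08 fed and 5.93, 5.53, 5.37 and 5.43 fasted, which overlapped, and its interaction was -1.57 ± 0.23 (adjusted p = 0.00350).

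Retreg1, a receptor that delivers endoplasmic reticulum to autophagosomes, rose 10.8-fold in WT and 4.88-fold in mFoxO-TKO muscle, with an interaction of -1.14 ± 0.26 (adjusted p = 0.0471). Sqstm1, the p62 receptor that brings ubiquitin-tagged cargo, rose 2.42-fold and 1.37-fold, with an interaction of -0.82 ± 0.18 (adjusted p = 0.0390). Both calls lay near the threshold: leaving out 1 array at a time, Retreg1 missed it in 12 and Sqstm1 in 15 of 16 fits. Atg13 is a partner of Ulk1 in the complex that starts autophagy. For Bnip3, a mitophagy receptor, the brightest probe read -4.85, 7.61, 7.73 and 7.44 on the fasted mFoxO-TKO arrays, the low value lying in the area of lost signal of replicate 1, and replicates 1 of WT_Fasted and mFoxO-TKO_Fed had no usable spot. Without those areas its interaction was -0.70 (adjusted p = 0.254). The next brightest Bnip3 probe gave -0.40 ± 0.20 and did not pass (adjusted p = 0.529), while a much dimmer probe gave -1.29 ± 0.27 (adjusted p = 0.0299). In the lysosome list 1 of 30 genes passed (3.33%, against 1.15% of all genes). It was Ctsl, a cysteine protease, which rose 2.52-fold in WT and changed by 0.05 ± 0.16 in mFoxO-TKO muscle (interaction -1.28 ± 0.23, adjusted p = 0.0126).

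**Figure D3:**
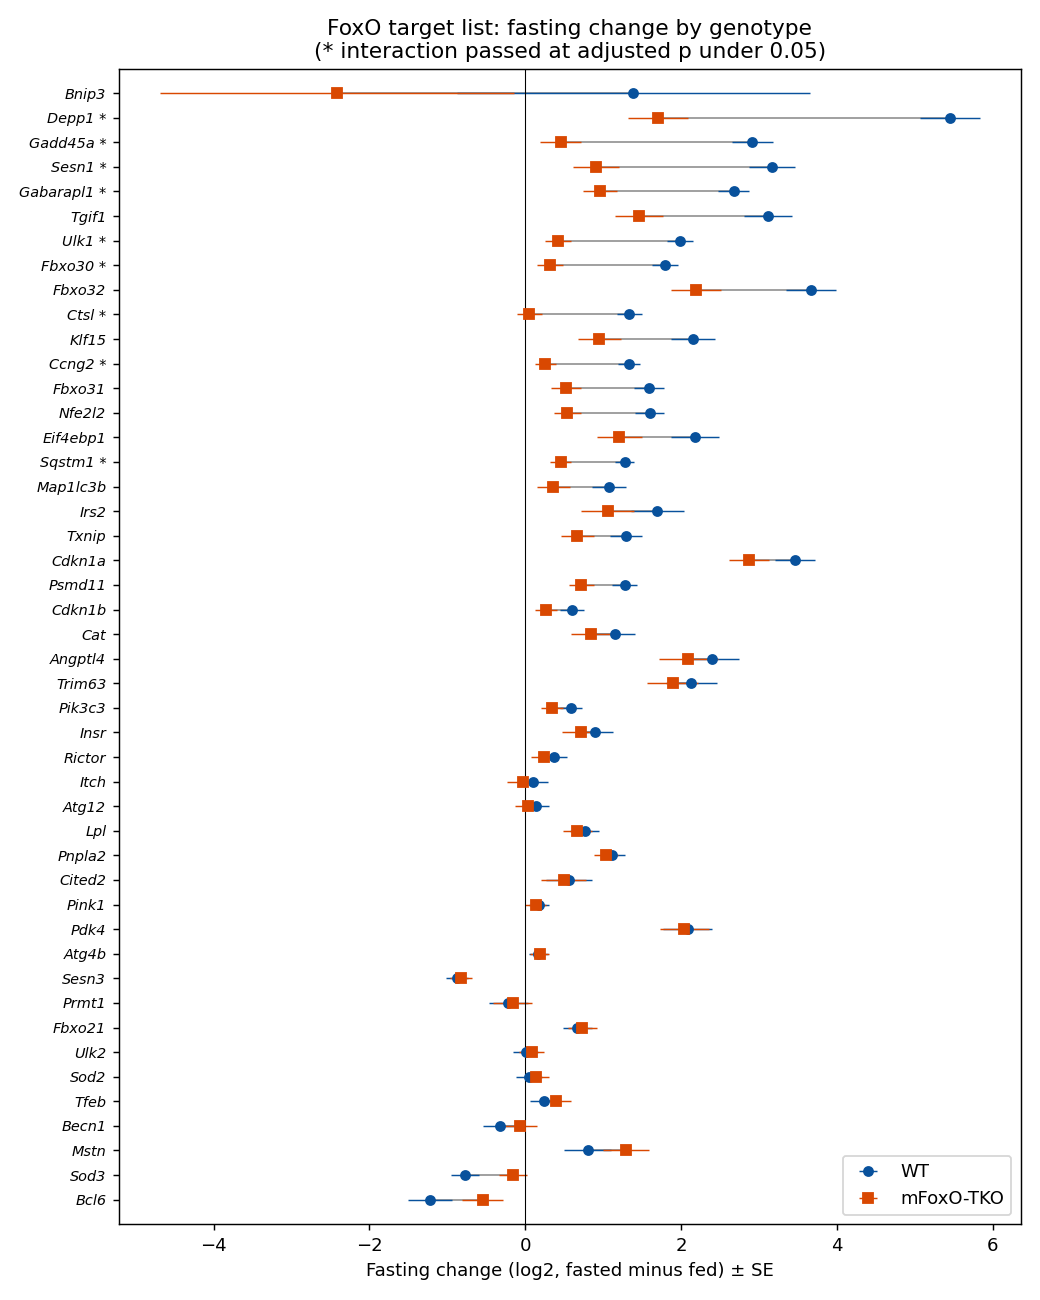
Fasting change (log2 ± standard error of the model) of the 46 FoxO targets in WT (circles) and mFoxO-TKO muscle (squares), ordered by interaction, with a star on the 9 whose interaction passed. The WT circle lies to the right of the mFoxO-TKO square for the upper part of the list, and both lie close together for genes such as Pdk4 and Trim63.

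Among ubiquitin ligases and their adaptors, which tag proteins for the proteasome, 1 of 27 passed (3.7%, against 1.15% of all genes). Fbxo30, the muscle ligase subunit also called MUSA1, stood at 0.44, 0.64, 0.46 and 0.28 in fed and 2.52, 2.18, 2.02 and 2.26 in fasted WT muscle. Muscle of mFoxO-TKO mice gave 0.78, 0.67, 0.43 and 0.28 fed and 1.23, 0.63, 0.88 and 0.68 fasted, with overlap. The interaction was -1.47 ± 0.23 (adjusted p = 0.00557), and the other Fbxo30 probe gave -1.6 ± 0.22 (adjusted p = 0.00223). Fbxo32 (atrogin-1), the ligase best known as a FoxO target in wasting muscle, stood at 2.7, 4.4, 3.49 and 2.9 in fed and 7.13, 6.93, 7.07 and 7.02 in fasted WT muscle, and at 3.37, 2.6, 2.32 and 2.39 in fed and 5.29, 4.39, 4.83 and 4.94 in fasted mFoxO-TKO muscle. Fasting separated its groups in both genotypes (12.7-fold and 4.58-fold), fasted mFoxO-TKO arrays lay below all fasted WT arrays, and the interaction of -1.47 ± 0.45 did not pass (adjusted p = 0.160). Trim63 (MuRF1), another ligase raised in wasting, was read by 2 probes that differed. The brighter gave -0.24 ± 0.47 (adjusted p = 0.932), with rises of 4.38-fold and 3.7-fold, and the dimmer gave -1.79 ± 0.39 (adjusted p = 0.0365). None of 33 proteasome genes passed in limma's test (5 at an unadjusted p under 0.05), although 29 of the 33 estimates were negative with a median of -0.35. Of these genes 12 rose in WT and 1 in mFoxO-TKO muscle, where 11.2% and 4.29% of all genes tested rose. The mFoxO-TKO count is near that share. An unadjusted p under 0.05 for the interaction was reached by 2209 of all 21281 genes tested.

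Several well-known fasting genes rose in both genotypes, and their interactions did not pass. Pdk4, the kinase that shuts pyruvate out of oxidation, rose 4.23-fold in WT and 4.11-fold in mFoxO-TKO muscle, with an interaction of -0.04 ± 0.44 (adjusted p = 0.988). Cdkn1a, the cell cycle inhibitor p21, rose 11-fold and 7.31-fold (interaction -0.59 ± 0.36, adjusted p = 0.666). Angptl4, an inhibitor of lipoprotein lipase, rose 5.24-fold and 4.27-fold (interaction -0.30 ± 0.51, adjusted p = 0.924). A missed threshold does not show that these responses were equal, since the standard errors ran from 0.36 to 0.51. Between these and the passing targets lay genes that missed the threshold. They include Tgif1 (-1.65 ± 0.44, adjusted p = 0.0934), the antioxidant regulator Nfe2l2 (-1.06 ± 0.26, adjusted p = 0.0749) and the glucocorticoid-induced factor Klf15 (-1.2 ± 0.40, adjusted p = 0.211). These misses depend on the processing. Nfe2l2 passed under 9 alternatives, among them the slide as a block (adjusted p = 0.046), the replicate block and the areas of lost signal left out (adjusted p = 0.0349). Tgif1 passed with uneven spots kept, with scaling on all spots, in the authors' value table and with array weights, and Klf15 with array weights alone.

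Immediate early genes switch on within minutes of a stimulus and mostly code for transcription factors. Of 25 tested, 5 passed (20%, against 1.15% of all genes), all negative, with a list median of -0.66. They were Maff, Junb, Ier3, Myc and Mafk. Junb, a subunit of AP-1, stood at -3.66, -3.22, -3.05 and -3.41 in fed and -1.49, -2.15, -1.3 and -1.8 in fasted WT muscle. It stood at -2.93, -2.41, -2.0 and -3.06 in fed and -2.88, -3.59, -3.06 and -3.03 in fasted mFoxO-TKO muscle, which overlapped, with a change of -0.54 ± 0.25 (adjusted p = 0.216) beside the 3.14-fold rise in WT. Its interaction was -2.19 ± 0.35 (adjusted p = 0.00572), and with normexp background correction Junb gave -1.13 and did not pass (adjusted p = 0.225). Maff, a small MAF factor, rose 16.5-fold in WT and 3.5-fold in mFoxO-TKO muscle (interaction -2.24 ± 0.37, adjusted p = 0.00664). Myc, a factor that drives growth and ribosome production, rose 3.75-fold in WT and changed by 0.11 ± 0.29 in mFoxO-TKO muscle (interaction -1.79 ± 0.41, adjusted p = 0.0470). Ier3 rose 3.84-fold in WT (interaction -1.62 ± 0.35, adjusted p = 0.0351). The Myc and Ier3 calls were lost in 14 and 12 of 16 fits without 1 array. Myc was also the only 1 of 28 ribosome biogenesis genes to pass (3.57%).

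Amino acid, stress and antioxidant genes also held passing members. Chac1, which degrades glutathione and is a target of the stress factor ATF4, stood at 5.08, 5.9, 5.09 and 4.38 in fed and 8.09, 7.4, 7.45 and 7.11 in fasted WT muscle. In mFoxO-TKO muscle it stood at 4.98, 3.9, 3.27 and 3.7 fed and 4.11, 4.16, 2.35 and 3.64 fasted, all fasted values being below all WT values. Its interaction was -2.8 ± 0.61 (adjusted p = 0.0351), and the call was lost in 9 of 16 fits without 1 array. Of 33 ATF4 targets and amino acid supply genes 9.09% passed (1.15% of all genes). They were Chac1, Gadd45a, which is also counted among the growth arrest genes, and the arginine and lysine transporter Slc7a1 (interaction -0.90 ± 0.21, adjusted p = 0.0483, lost in 14 of 16 such fits). Srxn1, sulfiredoxin, which restores oxidised peroxiredoxins, stood at 3.72, 3.8, 3.08 and 3.02 in fed and 6.17, 6.24, 6.19 and 6.27 in fasted WT muscle. It stood at 3.92, 4.37, 3.81 and 3.46 in fed and 5.65, 4.07, 3.96 and 3.78 in fasted mFoxO-TKO muscle, the high fasted value being replicate 1, the array with lost signal. Its interaction was -2.34 ± 0.47 (adjusted p = 0.0242), and the call was lost in 6 of 16 fits without 1 array. Srxn1 was the only 1 of 25 antioxidant genes to pass (4%, against 1.15% of all genes). Slc43a1, a transporter of large neutral amino acids, rose 14.4-fold in WT and 1.99-fold in mFoxO-TKO muscle (interaction -2.85 ± 0.37, adjusted p = 0.00137) and was already lower in fed mFoxO-TKO muscle (-1.32 ± 0.26, adjusted p = 0.0216).

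Of the genes of insulin, IGF and mTORC1 signalling 5% passed, and of those of glucose use 5.88% (1.15% of all genes). These shares are 2 of 40 and 2 of 34 genes. The lists were written with earlier results of these data known, so the shares lend no independent support. Igf1r, the receptor of insulin-like growth factors, rose 2.6-fold in WT and changed by 0.02 ± 0.18 in mFoxO-TKO muscle. Its interaction was -1.36 ± 0.25 (adjusted p = 0.0132), and with Sesn1 it made 2 of 40 genes of insulin, IGF and mTORC1 signalling. Odc1, the first enzyme of polyamine synthesis, rose 4.23-fold in WT, and all 3 of its probes passed (interaction -1.83 ± 0.30, adjusted p = 0.00578, by the brightest). Of 34 genes of glucose use, Slc2a1 and Pfkfb3 passed. Slc2a1, the glucose transporter GLUT1, rose 2.63-fold in WT and changed by -0.13 ± 0.23 in mFoxO-TKO muscle (3 usable fasted arrays; interaction -1.53 ± 0.31, adjusted p = 0.0284). That call was lost in 7 of 16 fits without 1 array.

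**Figure D4:**
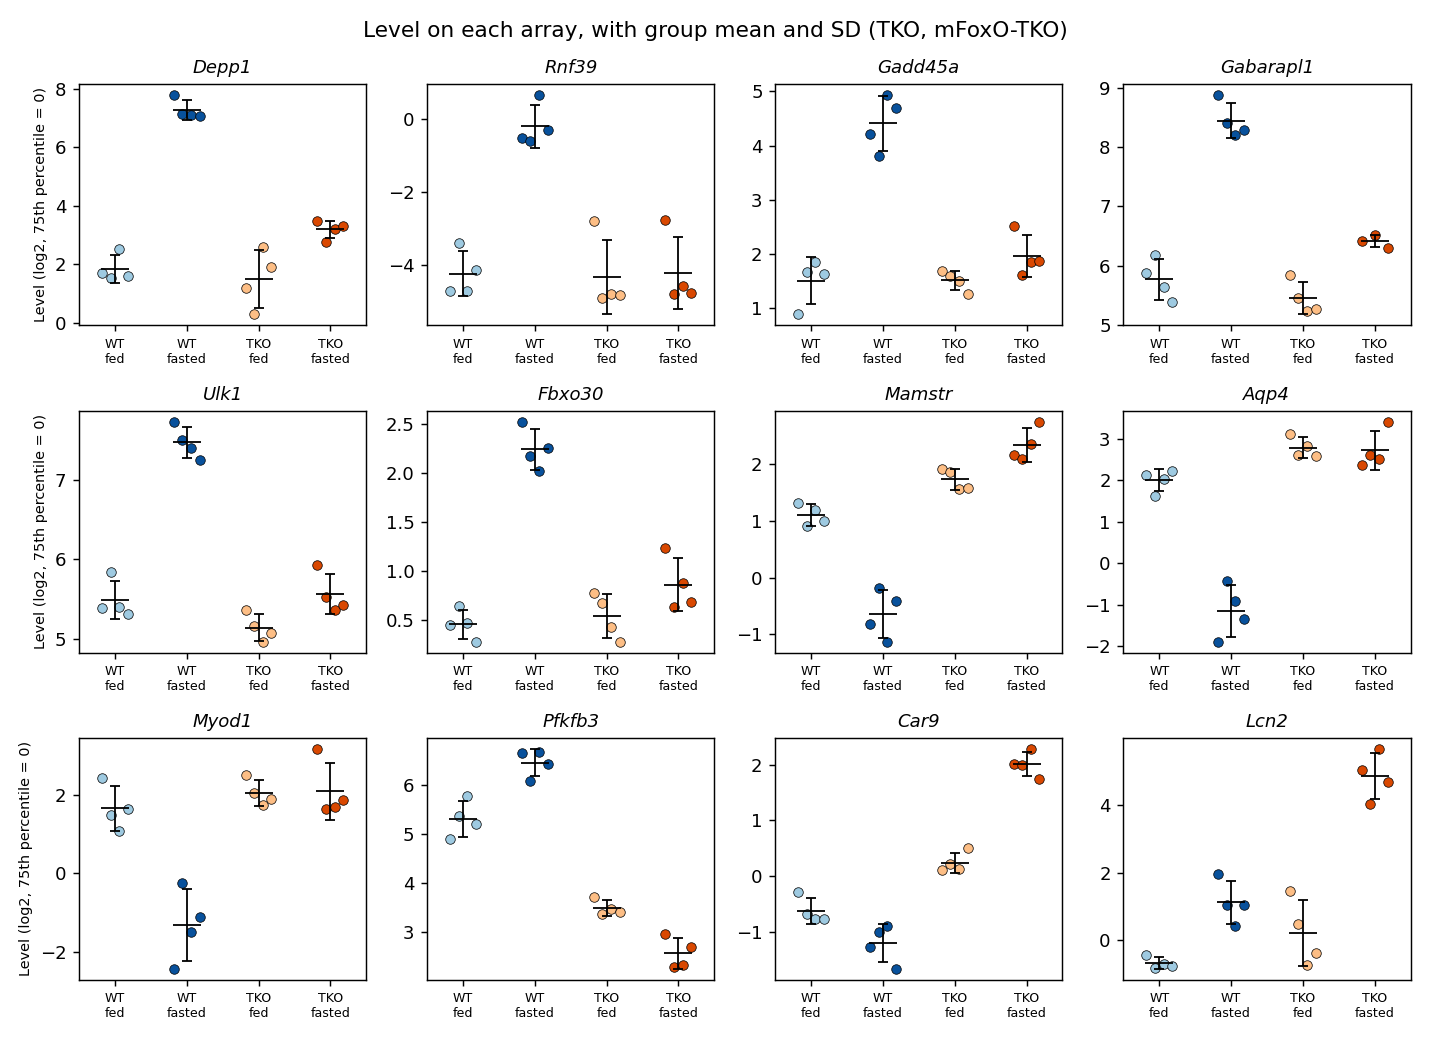
Level of 12 genes on each array (points, log2 relative to the 75th percentile of the array) with group mean and standard deviation, WT and mFoxO-TKO (TKO), fed and fasted. Depp1, Rnf39, Gadd45a, Gabarapl1, Ulk1 and Fbxo30 are high in fasted WT muscle, Mamstr, Aqp4 and Myod1 are low there, and Pfkfb3, Car9 and Lcn2 differ in fasted mFoxO-TKO muscle.

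Among genes with an ordinary symbol, Rnf39, Depp1 and Tmem132e had the lowest interactions. Rnf39, a RING finger protein, stood at -4.71, -3.41, -4.7 and -4.15 in fed and -0.53, -0.62, 0.65 and -0.33 in fasted WT muscle. It stood at -2.81, -4.91, -4.8 and -4.81 in fed and -2.77, -4.8, -4.56 and -4.77 in fasted mFoxO-TKO muscle, where replicate 1 of each group was high and the rest lay within or below the range of the fed WT arrays. The interaction was -3.93 ± 0.74 (adjusted p = 0.0162), and outside fasted WT muscle the probe was well above background on only 2, 3 and 1 of 4 arrays of WT_Fed, mFoxO-TKO_Fed and mFoxO-TKO_Fasted. Tmem132e, a transmembrane protein, gave -3.57 ± 0.38 (adjusted p = 0.000551) and was above background on 1 array of each of the other groups. With normexp background correction Tmem132e gave -1.16 and did not pass (adjusted p = 0.443). Rassf4, of a family that binds Ras proteins, was above background on all 16 arrays, rose 13-fold in WT, changed by 0.39 ± 0.27 in mFoxO-TKO muscle and gave -3.31 ± 0.39 (adjusted p = 0.000963). Galnt3, an enzyme that starts O-linked glycosylation, was well above background in fasted WT muscle alone. There it was at least 4.84-fold above fed WT and at least 3.64-fold above fasted mFoxO-TKO muscle, bounds set against the dimmest signals that were well above background on the arrays of the dim group. Its interaction passed (adjusted p = 0.0365), with no size given because 3 groups have only a bound, and the call was lost in 11 of 16 fits without 1 array. Rnf39, Tmem132e and Galnt3 passed the filter on dim probes only through fasted WT muscle, the group where they are high. Their calls are therefore no separate support, and the sizes given for Rnf39 and Tmem132e rest on dim signals in the other groups.

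Arl4d, a small GTPase of the ARF family, shared the smallest adjusted p with Pml and D230025D16Rik. Its level was 0.99, 0.95, 0.72 and 0.49 in fed and 4.98, 4.48, 3.98 and 4.38 in fasted WT muscle. Its mFoxO-TKO levels were 0.74, 0.81, 0.56 and 0.50 fed and 1.87, 1.55, 1.64 and 1.47 fasted, so both genotypes rose without overlap. The interaction was -2.69 ± 0.27 (adjusted p = 0.000283), and its other probe gave -2.46 ± 0.36 (adjusted p = 0.00317). Doc2b, a calcium sensor of vesicle release, rose 66.9-fold in WT and 9.32-fold in mFoxO-TKO muscle, from fed levels that were dim on some arrays (interaction -2.84 ± 0.53, adjusted p = 0.0159). Tuba1c, an α-tubulin, rose 6.38-fold in WT (interaction -2.59 ± 0.50, adjusted p = 0.0178). Zim1, an imprinted zinc finger gene, gave -2.73 ± 0.50 by its brighter probe and -2.8 ± 0.44 by the other (adjusted p = 0.0141 and 0.00460). The brighter probe was dim in fed WT muscle (-5.18, -4.08, -3.95 and -3.36). Neither probe was well above background on all 16 arrays, so both sizes rest in part on dim signals. Rgs2, which dampens G protein signalling, gave -2.5 ± 0.54 (adjusted p = 0.0338), but its dimmer probe gave -0.92 ± 0.81 (adjusted p = 0.810). Snhg1, a host gene of small nucleolar RNAs, gave -2.47 ± 0.55 (adjusted p = 0.0386), with replicate 1 of fasted mFoxO-TKO muscle far below the other 3. With areas of lost signal left out Snhg1 gave -1.90 (adjusted p = 0.000854). Leaving out 1 array at a time, the calls of Rgs2 and Snhg1 were lost in 11 and 12 of 16 fits.

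Of the genes that fell on fasting in WT muscle, 68 were classed as lost and 9 as reduced. Aqp4, the water channel of fast muscle fibres, stood at 2.14, 1.62, 2.03 and 2.22 in fed and -1.88, -0.42, -0.90 and -1.35 in fasted WT muscle. Its mFoxO-TKO levels were 3.11, 2.61, 2.83 and 2.58 fed and 2.37, 2.61, 2.51 and 3.41 fasted, all above every WT array. It fell 8.81-fold in WT (interaction 3.08 ± 0.40, adjusted p = 0.00137), and its other probe gave 3.6 ± 0.46 (adjusted p = 0.00131).

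Regulators of muscle identity and of growth factor signalling were among them. Myod1, the factor that commits cells to muscle, stood at 2.42, 1.48, 1.07 and 1.65 in fed and -2.44, -0.24, -1.5 and -1.11 in fasted WT muscle. The mFoxO-TKO arrays read 2.51, 2.04, 1.74 and 1.9 fed and 3.17, 1.64, 1.69 and 1.88 fasted, which overlapped. Its interaction was 3.02 ± 0.61 (adjusted p = 0.0234), and the call was lost in 4 of 16 fits without 1 array. Myod1 was the only 1 of 26 myogenic and neuromuscular genes to pass (3.85%, against 1.15% of all genes). Mamstr, a coactivator of MEF2 factors, fell 3.35-fold in WT, changed by 0.61 ± 0.20 in mFoxO-TKO muscle and gave 2.35 ± 0.29 (adjusted p = 0.00113). Smad3, which carries myostatin and activin signals to the nucleus, fell 2.43-fold in WT and gave 1.48 ± 0.23 (adjusted p = 0.00485). Smad3 was the only 1 of 28 genes of that signalling list to pass (3.57%). Both its probes passed. Inha, the inhibin α subunit, gave 2.08 ± 0.40 with 3 usable fasted mFoxO-TKO arrays (adjusted p = 0.0225) and Fgf5, a fibroblast growth factor, 2.69 ± 0.50 (adjusted p = 0.0141). Fgf5 was dim in fasted WT muscle (-5.91, -4.36, -4.90 and -4.42). It was not well above background on all 16 arrays, so its size rests in part on dim signals. Gdf1, a growth factor of the TGF-β family that shares a transcript with Cers1, fell 8.42-fold in WT and gave 2.16 ± 0.27 (adjusted p = 0.00132), while its dim other probe gave 0.44 ± 0.27 (adjusted p = 0.661).

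The remaining genes at this end span several roles. Mpp3, a scaffold of cell junctions, gave 2.65 ± 0.41 (adjusted p = 0.00485), and the mitotic kinase Aurka 2.02 ± 0.36 (adjusted p = 0.0117). Ccdc69 gave 2.05 ± 0.43 and the vomeronasal receptor gene Vmn1r65 2.2 ± 0.42 (adjusted p = 0.0291 and 0.0178). Cd28, a co-stimulatory receptor of T cells, was already low in fed mFoxO-TKO muscle. Its level was 0.95, 0.28, -0.02 and 1.05 in fed and -1.27, -1.74, -2.04 and -2.31 in fasted WT muscle, and -1.15, -1.2, -2.13 and -2.29 in fed and -1.84, -2.09, -2.2 and -2.19 in fasted mFoxO-TKO muscle. Only fed WT muscle was high, and the interaction of 2.02 ± 0.43 (adjusted p = 0.0315) came with a knockout difference of -2.26 ± 0.30 in fed and -0.24 ± 0.30 in fasted muscle. Fits without 1 array lost the call of Cd28 in 8 of 16 cases and that of Ccdc69 in 11. Among reduced falls, Fam78a fell 16.8-fold and 4.22-fold, Srcin1 7.78-fold and 1.98-fold, Relt 5.81-fold and 1.96-fold, and Grtp1 5.04-fold and 2.23-fold in WT and mFoxO-TKO muscle. Relt and Grtp1 each lost the call in 11 of 16 such fits. The 4 interactions ran from 1.17 to 1.99, and the dim other probe of Fam78a gave 0.53 ± 0.54 (adjusted p = 0.840). Srcin1 was not well above background on all 16 arrays (-5.61 on replicate 1 of WT_Fasted), so its fold changes rest in part on dim signals.

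Reversed responses were few. Pfkfb3, which makes the activator of glycolysis fructose 2,6-bisphosphate, stood at 4.9, 5.36, 5.78 and 5.2 in fed and 6.65, 6.07, 6.67 and 6.42 in fasted WT muscle. Muscle of mFoxO-TKO mice gave 3.72, 3.37, 3.46 and 3.41 fed and 2.97, 2.3, 2.33 and 2.69 fasted, so it rose in WT, fell in mFoxO-TKO muscle, and was lower in mFoxO-TKO muscle in either state. The change was 1.14 ± 0.20 in WT and -0.92 ± 0.20 in mFoxO-TKO muscle (interaction -2.06 ± 0.29, adjusted p = 0.00244), and the other probe gave -2.16 ± 0.36 (adjusted p = 0.00729). Car9, a carbonic anhydrase of the cell surface that is known as a hypoxia-induced gene, stood at -0.29, -0.69, -0.76 and -0.78 in fed and -1.27, -1.01, -0.90 and -1.67 in fasted WT muscle. In mFoxO-TKO muscle it stood at 0.11, 0.21, 0.13 and 0.49 fed and 2.01, 2.0, 2.28 and 1.75 fasted, and no groups overlapped. It changed by -0.58 ± 0.18 in WT and 1.77 ± 0.18 in mFoxO-TKO muscle (interaction 2.36 ± 0.26, adjusted p = 0.000551). Map2k6, the kinase that activates p38, changed by -1.42 ± 0.22 on the 3 usable fasted WT arrays and by 0.70 ± 0.21 in mFoxO-TKO muscle (interaction 2.12 ± 0.30, adjusted p = 0.00350). Shisa2, which holds Wnt and FGF receptors back in the cell, gave 1.8 ± 0.28, and Frat1, a binder of the kinase GSK3, 1.73 ± 0.33 (adjusted p = 0.00485 and 0.0181). Dpf1, a chromatin factor, gave 1.86 ± 0.29 and Izumo4 -1.72 ± 0.32 (adjusted p = 0.00501 and 0.0155). The dimmer probe of Dpf1 gave 1.0 ± 0.43 (adjusted p = 0.423). The brighter probe read -3.64, -3.21, -4.26 and -3.67 in fasted WT muscle. It was not well above background on all 16 arrays, so its size rests in part on dim signals.

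Of the 244 genes, 7 gained a response without FoxO, and Lcn2 alone had an enlarged one. Lcn2, lipocalin 2, a secreted iron-binding protein that rises with glucocorticoids and inflammation, stood at -0.43, -0.82, -0.69 and -0.75 in fed and 1.96, 1.05, 0.43 and 1.03 in fasted WT muscle. Its mFoxO-TKO levels were 1.46, 0.49, -0.74 and -0.37 fed and 5.04, 4.03, 5.67 and 4.68 fasted, above every other array. The rise was 3.47-fold in WT and 25-fold in mFoxO-TKO muscle, with an interaction of 2.85 ± 0.62 (adjusted p = 0.0351). That value was 1.43 on slide 1 and 4.28 on slide 2, and the call was lost in 12 of 16 fits without 1 array. Dlgap1, a scaffold of synapses, stood at -1.15, -1.13, -0.98 and -1.14 in fed and -1.15, -1.1, -1.34 and -1.29 in fasted WT muscle, and at -1.81, -1.71, -1.89 and -1.2 in fed and -0.75, -0.65, -0.54 and -0.61 in fasted mFoxO-TKO muscle. It rose 2.02-fold in mFoxO-TKO muscle alone (interaction 1.13 ± 0.20, adjusted p = 0.0120). The chemokine-like gene Cklf gave 1.04 ± 0.22, the actin and membrane regulator Mtss1 0.99 ± 0.20 and the homeobox gene Hoxc11 0.89 ± 0.19 (adjusted p = 0.0312, 0.0249 and 0.0289), and these calls were lost in 10, 6 and 10 of 16 fits without 1 array. Zfp583 fell in mFoxO-TKO muscle (-0.63 ± 0.18) and gave -1.14 ± 0.25 (adjusted p = 0.0390), a call lost in 13 of 16 fits without 1 array. The other probes of Mtss1 and Cklf had the same sign and did not pass. The largest gained change was that of BC027582, named after its values were seen, which rose 6.45-fold in mFoxO-TKO muscle (interaction 1.96 ± 0.39, adjusted p = 0.0234).

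Over the 26 pathway lists, 26 of 704 distinct genes passed (3.69%, against 1.15% of all genes tested), 23 negative and 3 positive, and 11 lists held none. The lists were written with earlier results of these data known, so the share of 3.69% lends no independent support. At 1.15% a list of 40 genes holds fewer than 1 passing gene, and a count of 0 is therefore no result about a list of this size. In fatty acid use 0 of 39 passed in limma's test (1 at an unadjusted p under 0.05), the list median interaction was 0.09, and 19 of these genes rose in WT and 17 in mFoxO-TKO muscle. Fatty acid and cholesterol synthesis had 0 of 33 (8 unadjusted), with 17 members falling in WT and 11 in mFoxO-TKO muscle, and the respiratory chain 0 of 32 (0 unadjusted). For the extracellular matrix it was 0 of 32 (0 unadjusted), with falls of 17 and 13 genes. The glucocorticoid response list had a median fasting change of 1.76 in WT and 0.93 in mFoxO-TKO muscle and a median interaction of -0.59. Its only passing member, Lcn2, went the other way. Of its 26 genes 20 rose in WT and 12 in mFoxO-TKO muscle. Beside these list counts, 2209 of all 21281 genes tested had an unadjusted p under 0.05 for the interaction. Of all genes tested, 11.2% rose and 9.57% fell in WT muscle. In mFoxO-TKO muscle 4.29% rose and 4.23% fell.

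**Figure D5:**
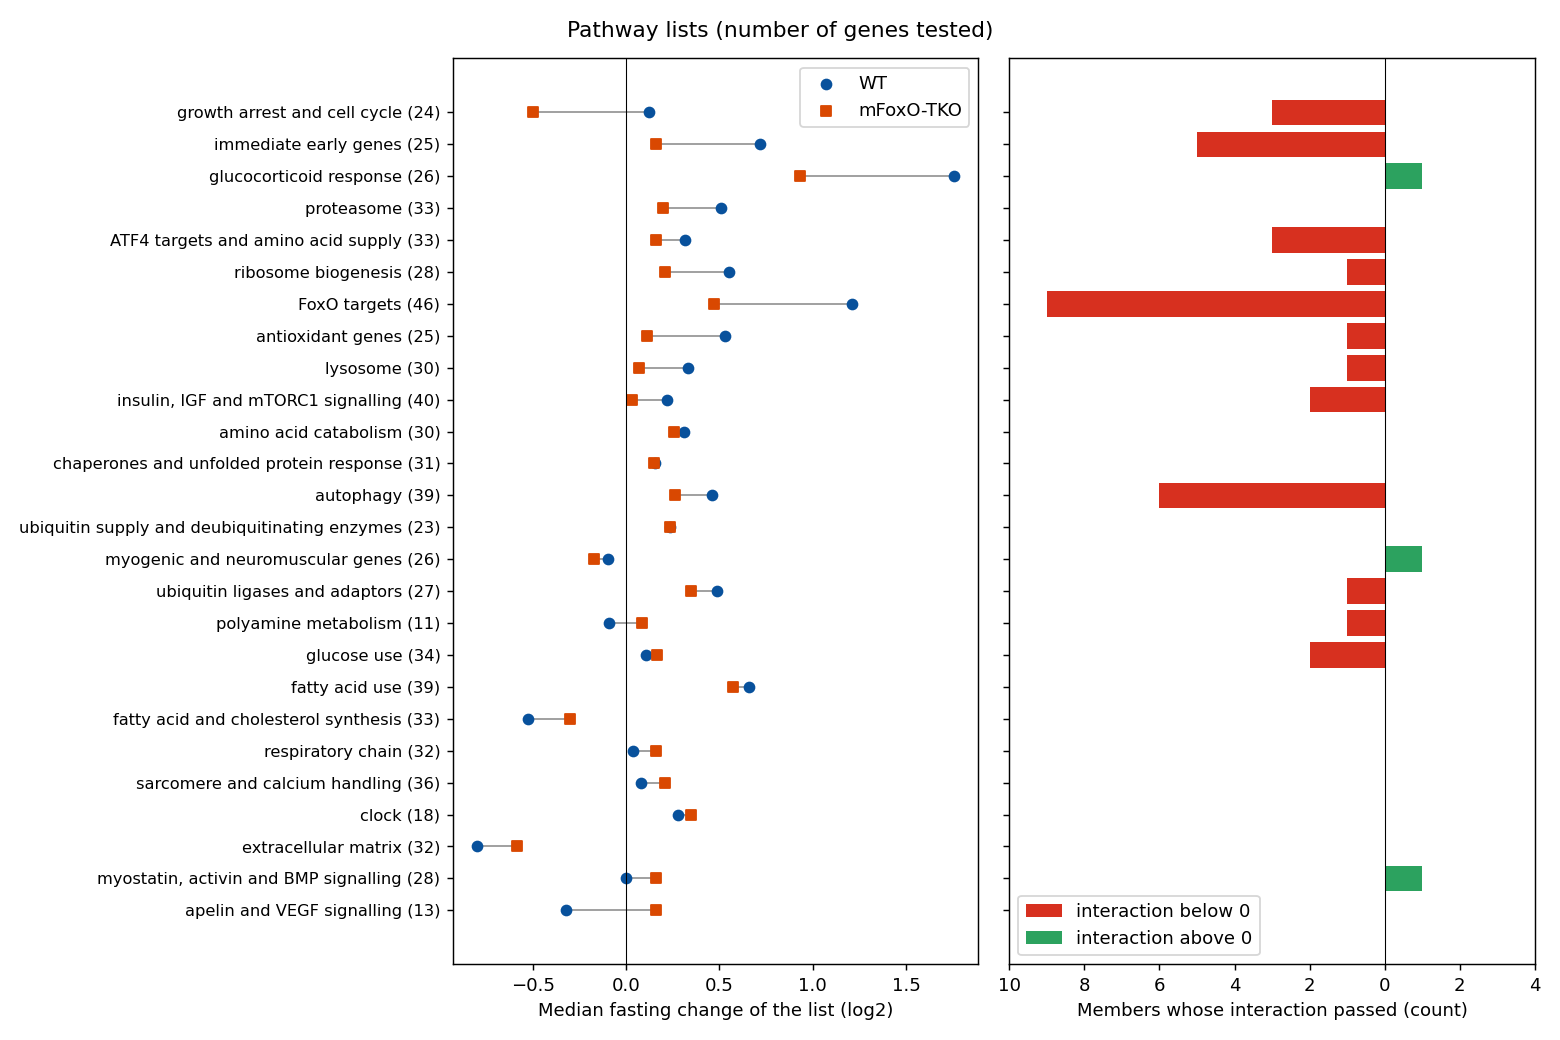
Left, median fasting change (log2) of each pathway list in WT (circles) and mFoxO-TKO muscle (squares), with the number of genes tested in brackets, ordered by median interaction. Right, the number of members whose interaction passed, below 0 (red) or above 0 (green), with FoxO targets at 9, autophagy at 6 and immediate early genes at 5.

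None of 61 cell type markers in 10 lists passed (0 at an unadjusted p under 0.05 in limma's test), and their median interaction was 0.14. Over all 21281 genes tested 1.15% passed, and 2209 had an unadjusted p under 0.05. At a share of 1.15% a count of 0 passing among 61 genes is no result about the markers. The muscle fibre markers, among them Acta1, Ckm and Myh4, had a mean level from 8.20 to 9.12 over the 16 arrays and a median interaction of 0.06. The list medians ran from -0.27 for 7 macrophage markers to 0.35 for 8 endothelial markers, whose mean level ran from 1.76 to 2.30 in fasted WT and from 1.90 to 2.45 in fasted mFoxO-TKO muscle. Beside the T cell gene Cd28, the 4 leukocyte markers were dim, from -1.54 to -0.70 in fed and -1.75 to -0.69 in fasted WT muscle, and from -1.30 to -0.62 in fed and -1.53 to -0.39 in fasted mFoxO-TKO muscle. Macrophage markers ran from 1.13 to 1.95 in fed and from 1.02 to 1.35 in fasted WT muscle. In mFoxO-TKO muscle they ran from 1.67 to 2.70 fed and from 0.95 to 2.08 fasted. For the endothelial markers the fed ranges were 1.94 to 2.43 in WT and 1.49 to 2.60 in mFoxO-TKO muscle. The part of these cell types in the interaction was not tested.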

How the data were processed

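RNA of 16 quadriceps samples was hybridised singly, labelled with Cy3, to Agilent arrays. The deposited scanner files hold intensity per spot. Per the file headers, Feature Extraction 11.0.1.1 subtracted background and detrended each array (gProcessedSignal), with a design on build mm9, while the submitters' processing notes name version 9.5. The other deposited columns used are 0 or 1 flags, per the file headers. The authors' value table, treated as a score, holds 18324 spots as a linear multiple of that signal with the 75th percentile of each array at 100; log2(value + 1) of it was an alternative.

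Spots marked uneven were left out and spots of a probe averaged. The log2 intensity minus the 75th percentile of the array was used. Probes were kept where all arrays of any 1 group read them well above background (28572 of 55681), named by RefSeq accession (28331 probes matched a symbol), and the brightest kept probe stood for a gene. limma 3.58.1 (R 4.3.3) fitted 4 group means to all 16 arrays with empirical Bayes. Benjamini-Hochberg adjustment ran over 21281 genes with a threshold of 0.05, and the procedure was tested on simulated data. Standard errors are those of the model. The number of arrays limits the precision.

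Lost, reduced and the other classes follow from the passes of the interaction and of both fasting changes. Named genes were the 15 lowest and 15 highest interactions with an ordinary symbol, up to 5 per class and direction, up to 4 passing members per list, and all FoxO targets. Of these, 1 gene is not reported here. Members and lists were chosen with earlier results of these data known. Alternatives covered background correction (normexp on median spot and local background signals), scaling (on probes above background throughout, or quantile), filters, probe choice, slide and replicate blocks, array weights and each array left out. Scaling on all spots and leaving out areas of lost signal were added after seeing the data.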

Additional observations from a re-analysis of the deposited data

Results flagged for a closer look

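Over 101 named genes with up to 4 groups each, 32 groups of 4 arrays held an array far from its neighbours by Dixon's criterion. Chance alone gives such a gap in about 1 in 20 groups, so many of these flags may be chance. Replicate 1 of mFoxO-TKO_Fasted accounted for 11 of them. Its log2 level was high, given against the nearest other array of its group, for Rnf39 (-2.77 against -4.56), Rgs2 (3.34 against 2.52), Srxn1 (5.65 against 4.07), Myod1 (3.17 against 1.88), Ctsl (6.12 against 5.53), Igf1r (1.34 against 0.91), Psmd11 (4.64 against 4.03) and Rictor (1.03 against 0.49). It was low for Snhg1 (-1.64 against 0.51), Bnip3 (-4.85 against 7.44) and Cat (1.72 against 3.01). That array also had 6.17% of its spots in areas of lost signal, and the part of these areas in the flags was not tested beyond the values without them.

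Replicate 1 of mFoxO-TKO_Fed was high for Rnf39 (-2.81 against -4.80), Frat1 (2.68 against 2.18), Sesn1 (2.65 against 1.90), Insr (2.21 against 1.64) and Lpl (6.76 against 6.10). Replicate 1 of WT_Fasted was high for Depp1 (7.80 against 7.14) and Sesn1 (6.75 against 5.43) and low for Srcin1 (-5.61 against -4.44). Replicate 1 of WT_Fed was high for Tmem132e (-4.76 against -5.30), replicate 3 of mFoxO-TKO_Fasted was low for Fam78a (0.42 against 1.22) and Pnpla2 (5.78 against 6.16) and replicate 4 of mFoxO-TKO_Fasted was low for Dpf1 (-1.14 against -0.86). Replicate 3 of WT_Fed was high for Dlgap1 (-0.98 against -1.13) and Mtss1 (0.0925 against -0.0025), replicate 3 of WT_Fasted was low for Cklf (-2.28 against -1.71) and Atg4b (-0.51 against -0.19) and replicate 2 of WT_Fed was high for Ulk1 (5.84 against 5.40). Replicate 2 of WT_Fasted was low for Ctsl (6.75 against 7.17), replicate 1 of WT_Fed was low for Igf1r (0.84 against 1.23) and replicate 2 of WT_Fasted was high for Fbxo21 (2.83 against 2.37). Replicate 3 of mFoxO-TKO_Fed was low for Psmd11 (3.31 against 3.45).

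The interaction itself tests whether the genotypes differ in their fasting response, and it passed for 244 genes in limma's test, of which 184 were lost, 43 reduced, 9 reversed, 7 gained and 1 enlarged. The named genes whose response was reversed, gained or enlarged in mFoxO-TKO muscle were Lcn2 (2.85), Car9 (2.36), Map2k6 (2.12), Pfkfb3 (-2.06), Izumo4 (-1.72), Dpf1 (1.86), Shisa2 (1.80), Frat1 (1.73), Dlgap1 (1.13), Cklf (1.04), Mtss1 (0.99), Hoxc11 (0.89) and Zfp583 (-1.14), as log2 interactions.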

How the results depend on the processing

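The number of passing genes was set by the choices made more than their direction was. It was 244 as reported, with 227 lost or reduced, 17 in the other classes and 26 members of the pathway lists. In that order the values were 592, 533, 59 and 45 with scaling on probes above background throughout, 512, 468, 44 and 40 with quantile normalization, and 79, 76, 3 and 10 with no filter on dim probes. They were 424, 395, 29 and 41 with uneven spots kept, 569, 512, 57 and 47 with the slide as a block, 711, 640, 71 and 51 in the authors' table, and 924, 799, 125 and 75 with array weights. Scaling on all spots, added after seeing the data, gave 468, 433, 35 and 46. The other classes held 26 genes with probes above background on all 16 arrays and 31 with areas of lost signal left out, also added after seeing the data. Slide 1 alone gave 7 passing genes and slide 2 alone 70.

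With the replicate number as a block the values were 721, 647, 74 and 56. All 244 genes passed with it. The labels tie a number to no shared animal, litter or day. The correlations here are of what was left on each array after the group means were taken off, not of the levels themselves. Same-numbered arrays, which also share a slide, correlated at 0.055 to 0.392 with a median of 0.185, above 0.1 in 23 of 24 pairs. For differently numbered arrays on the same slide the median was 0.111, above 0.1 in 14 of 24 pairs, and 11 of 16 arrays correlated best with their own number. The 48 pairs on different slides all lay below 0 (-0.383 to -0.036, median -0.144). The reported fit has no slide term, so a difference between the slides enters its spread. Arrays with the same number also share an array row of their slide, so a pairing of samples and array position cannot be told apart. The likeness comes from the data, not from a stated design. The fit without the block was kept because not every pair was above 0.1. Leaving out 1 array gave 133 to 437 passing genes, 125 to 397 lost or reduced, 5 to 40 in the other classes and 14 to 47 list members. The lowest count of passing genes came without WT_Fed 4 and the highest without mFoxO-TKO_Fasted 1. It was also over 1.5 times lower without WT_Fed 1 (155), WT_Fed 3 (155), mFoxO-TKO_Fed 2 (144), mFoxO-TKO_Fed 3 (148), mFoxO-TKO_Fasted 2 (149) and mFoxO-TKO_Fasted 4 (143). The cause of these differences was not tested. Of the 244 genes, 122 passed in all 16 such fits, as did 36 of the 62 passing genes that the naming rule picked. The direction held for every one of the 244 that could be tested under each alternative, except 1 gene with uneven spots kept. These genes were chosen on the same arrays, so the kept direction is no separate check.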

Other observations

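Of the 187 passing genes with an ordinary symbol, 161 belonged to none of the pathway lists. The following were picked from them after their values were seen and are given as values. The imprinted neighbours Zim1 and Peg3 both had negative interactions, Peg3 at -1.88 ± 0.33 (adjusted p = 0.0120 in limma's test), with a fasting change of 2.81 in WT and 0.93 in mFoxO-TKO muscle. Snhg12, like Snhg1 a host gene of small nucleolar RNAs, had an interaction of -2.02 ± 0.24 (adjusted p = 0.00103). Among genes that rose in WT muscle, Arid5a, an RNA-binding regulator of cytokine transcripts, gave -2.32 ± 0.31, the lymphatic growth factor Vegfd -1.9 ± 0.27, the repressor Bach2 -1.93 ± 0.35 and the growth factor receptor Fgfr1 -1.44 ± 0.27 (adjusted p = 0.00159, 0.00247, 0.0126 and 0.0171). Among genes that fell in WT muscle, the potassium channel subunit Kcng4 gave 1.8 ± 0.29, the actin-bundling gene Palld 1.56 ± 0.25, the myosin-binding gene Mybph 1.56 ± 0.35 and the retinoid receptor Rxrg 1.29 ± 0.24 (adjusted p = 0.00572, 0.00587, 0.0433 and 0.0159).

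Probes named only by a genome range made up 19 of the passing features. On build mm9, 3 of them lie close together on the minus strand of chromosome 12, at chr12:52880692-52933444, chr12:52886460-52888921 and chr12:52944867-52971992, with interactions of -1.69, -1.62 and -4.03. The 2 former ranges overlap.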
